A study of Mus musculus with 7 samples.

Results

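The Rab genes encode small GTPases, and 99 of the 28898 probe sets paired with a single gene symbol carried a symbol made of Rab, a number and at most a letter and a further digit. They stood for 55 of 17097 genes. Of these, 47 lay above the level filter and were tested among 12822 genes, and 8 (Rab1a, Rab30, Rab33a, Rab38, Rab39, Rab39b, Rab7b and Rab9b) lay below it. The samples were 3 KO and 4 WT Affymetrix arrays of adenoma cells from the mouse colon. Every animal carried a Tomato reporter in 1 Mex3a allele, Villin CreERT2 (a tamoxifen-inducible Cre driven by a promoter of the gut epithelium) and 1 floxed Apc allele. The other Mex3a allele was floxed in KO animals and wild-type in WT animals, so the WT samples held 1 intact Mex3a allele besides the reporter. All animals were given tamoxifen 4 times and 2% dextran sulfate sodium in drinking water for 5 days, and adenomas were taken 2 months later, with no age given in the labels. Cells positive for Epcam and for Tomato, which reads out the Mex3a promoter, were sorted, and RNA of 2000 cells was amplified over 24 cycles.

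A Rab protein switches between a GTP-bound form, which recruits effectors to a membrane, and a GDP-bound form, which is extracted from it. Each member marks its own set of compartments, and exchange factors and GTPase-activating proteins turn it on and off. In the gut epithelium Rab11a and its epithelial relative Rab25 work at the apical recycling endosome, from which cargo returns to the brush border, and Rab11b is the third member of that subfamily.

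The upstream sequences of these 3 genes are shown because the levels of Rab25 are set against those of Rab11a and Rab11b below. Each is the 250 bases before the annotated start, from RefSeq on GRCm38.p6, written 5′ to 3′ along the gene. Capitals mark matches on either strand to 6 short motifs, and matches that overlap run together. The motifs were TATAAA, known as the TATA box, the E-box spelled CACCTG, the GC box spelled GGGCGG, the cyclic AMP response element spelled TGACGTCA, the core of ETS factor sites spelled CCGGAAG and that of TCF/LEF sites spelled CTTTGAT.
Rab25, chr3:88548280-88548529, minus strand: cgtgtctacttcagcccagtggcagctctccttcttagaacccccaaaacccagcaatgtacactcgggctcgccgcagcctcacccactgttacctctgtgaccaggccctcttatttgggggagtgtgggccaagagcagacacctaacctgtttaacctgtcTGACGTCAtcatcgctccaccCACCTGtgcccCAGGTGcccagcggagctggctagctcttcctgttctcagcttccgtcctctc
Rab11a, chr9:64737757-64738006, minus strand: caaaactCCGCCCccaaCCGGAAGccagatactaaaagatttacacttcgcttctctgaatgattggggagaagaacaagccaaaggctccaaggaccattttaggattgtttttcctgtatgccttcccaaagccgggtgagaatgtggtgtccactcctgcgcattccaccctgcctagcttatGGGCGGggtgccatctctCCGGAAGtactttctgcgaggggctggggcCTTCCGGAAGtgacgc
Rab11b, chr17:33760487-33760736, minus strand: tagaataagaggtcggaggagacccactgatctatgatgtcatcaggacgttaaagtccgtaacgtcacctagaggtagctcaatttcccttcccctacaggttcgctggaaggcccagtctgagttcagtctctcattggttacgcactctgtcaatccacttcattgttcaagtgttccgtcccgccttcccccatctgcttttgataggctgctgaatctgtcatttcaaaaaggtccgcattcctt

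The Rab25 window held 2 copies of CACCTG and 1 of TGACGTCA. Of 32841 promoter windows of this length, 17.2% held CACCTG and 1.55% held TGACGTCA. The Rab11a window held 4 matches to CCGGAAG, a pair of them overlapping on opposite strands, and 2 to GGGCGG, found in 6.91% and 32.7% of all windows. The Rab11b window held none of the 6 motifs, which says only that these letters are not there. In all, 44 of the 55 Rab genes had at least 1 window, 56 windows together, and GGGCGG stood in 36 of them (64.3%). Rab promoters were rich in CpG, with a median of 15 in 250 bases against 6 over all windows. Rab25 had 8, Rab11a 10 and Rab11b 9, and 14 of the 56 Rab windows had no more CpG than Rab25. The motifs were chosen after the sequences had been read.

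Mex3a itself checks the labels. Its log2 level on the brighter of 2 probe sets was 6.18, 6.29 and 6.07 in the KO arrays, against 7.41, 7.38, 7.50 and 7.01 in the WT arrays. Epcam read 11.88 to 11.99 in KO and 11.88 to 12.00 in WT, and all 10 epithelial markers examined passed the level filter. Ptprc, Cd3e and Itgam of the leukocytes, Col1a2, Lum and Pdgfra of fibroblasts, Emcn of endothelium and the 3 mast cell markers lay below that filter. The mean log2 level of 9 leukocyte markers ran from 6.46 to 6.65 in KO arrays and from 6.42 to 6.55 in WT arrays. Vim, a filament protein of stromal cells, and Cdh5, an endothelial cadherin, had every KO array below every WT array, with log2 differences of -0.29 (SE 0.06) and -0.41 (SE 0.09). Vim averaged 11.18 in KO and 11.50 in WT, not far below Epcam, and Cdh5 averaged 6.11 and 6.50. The other tested fibroblast markers Col1a1, Col3a1 and Dcn differed by -0.19, 0.27 and 0.03, and the other tested endothelial markers Pecam1 and Kdr by 0.04 and 0.03, all with overlapping groups. The list means overlapped too, at 6.30 to 6.86 in KO and 6.32 to 6.92 in WT for 7 fibroblast markers, and at 5.63 to 5.68 in KO and 5.67 to 5.83 in WT for 4 endothelial markers. Lyz2, a lysozyme of myeloid cells, had every KO array above every WT array (0.39, SE 0.15), while 4 of the 6 tested leukocyte markers had negative differences, among them the myeloid Csf1r (-0.12) and Cd68 (-0.04). Lyz2 averaged 12.447 in KO and 12.035 in WT, above Epcam. Whether these signals come from stromal, endothelial or myeloid cells, and the part of such cells in the Rab results, was not tested. Y-linked genes gave signal in KO replicate 3 and WT replicate 2 only. Whether the arrays come from separate animals is not in the labels, and the p-values then speak only of array-to-array spread, part of which may be technical.

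Rab25 was the member with the largest decrease and the smallest p of all Rab genes. Its single probe set read 10.95, 10.87 and 10.74 in the KO arrays, against 11.45, 11.20, 11.70 and 11.34 in the WT arrays. All KO arrays lay below all WT arrays, and WT replicate 2 was the nearest to them. KO arrays averaged 10.85 ± 0.11 (SD, n = 3), against 11.42 ± 0.22 (SD, n = 4) for WT arrays, a log2 difference of -0.58 (SE 0.12) or 1.49-fold. Over all genes this did not pass (limma, unadjusted p = 0.00121, adjusted p = 0.329), although Rab25 ranked 45 of 12822 by p. Rab25 was 1 of 28 genes (0.218%) with a log2 difference of -0.5 or lower. In sorted cells measured in bulk, fewer cells that express a gene and less of its RNA per cell cannot be told apart.

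The Rab25 difference held its sign in both scan batches, the batches named in the labels. Within scan batch 1, with 1 KO and 2 WT arrays, it was -0.37, and within scan batch 2, with 2 of each, it was -0.72. The 3′ minus 5′ Gapdh control signal on the log2 scale, a measure of RNA quality, was -0.15, -0.21 and -0.24 in the KO arrays, against -0.13, -0.21, -0.12 and -0.12 in the WT arrays. WT replicate 2 therefore stood among the KO arrays in that measure and was also the lowest WT array for Rab25. With the Gapdh signal as a further covariate, the Rab25 difference was -0.41 and the Mex3a difference -1.15, against -1.13 without it. The 3′ minus 5′ actin control signal was -0.301, -0.515 and -0.446 in KO, against -0.485, -0.429, -0.497 and -0.448 in WT, with overlapping groups. The part of RNA quality in the Rab25 difference was not tested. The mean of the epithelial markers was 9.75, 10.25 and 10.03 in KO and 9.83, 10.02, 10.03 and 9.80 in WT, so it overlapped between the groups.

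Rab11a, the ubiquitous recycling-endosome GTPase, had a mean on the other side. It read 9.34, 9.34 and 9.44 in KO, against 9.29, 9.39, 8.94 and 8.89 in WT. The 2 WT arrays of scan batch 2 were low, while those of scan batch 1 overlapped with the KO arrays or lay just below them. The difference was 0.28 (SE 0.11; limma, unadjusted p = 0.0366, adjusted p = 0.42), made up of 0.00 within scan batch 1 and 0.47 within scan batch 2, and it was 0.11 with the Gapdh covariate. The second Rab11a probe set differed by 0.34 (SE 0.08).

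Rab11b read 10.46, 10.33 and 10.41 in KO, against 10.53, 10.31, 10.63 and 10.50 in WT. The groups overlapped and the difference was -0.10 (SE 0.09; limma, adjusted p = 0.645). Its 2 dimmer probe sets gave 0.13 and 0.06, so its sign depends on the probe set, and it was 0.02 with the Gapdh covariate.

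Set against each relative within an array, Rab25 was lower in KO on both ratios. The log2 ratio of Rab25 to Rab11b was 0.49, 0.54 and 0.33 in KO, against 0.92, 0.89, 1.07 and 0.84 in WT. The groups did not overlap, and the difference was -0.48 (SE 0.09) in an ordinary linear model with scan batch. The plain difference of the group means, 0.45 in KO and 0.93 in WT, had a two-sided exact permutation p of 0.0286. That is the smallest that 35 splits can give. The log2 ratio of Rab25 to Rab11a was 1.61, 1.53 and 1.30 in KO, against 2.17, 1.80, 2.76 and 2.44 in WT. These did not overlap either, and the difference was -0.86 (SE 0.25) in the same model. The plain difference of the group means, 1.48 in KO and 2.29 in WT, had an exact permutation p of 0.0571. Adjusted over the 2 pairs compared, both exact permutation p-values were 0.0571, so neither passed. For the differences from the model, exchanging arrays only within scan batch gave exact permutation p-values of 0.0556 and 0.111. There were 18 arrangements, where 0.0556 is the smallest possible. A ratio within an array shows unequal change and not which of the genes changed. Within scan batch 1 the ratio to Rab11a differed by -0.38, against -1.19 within scan batch 2, and the ratio to Rab11b by -0.42 and -0.52.

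**Figure D1:**
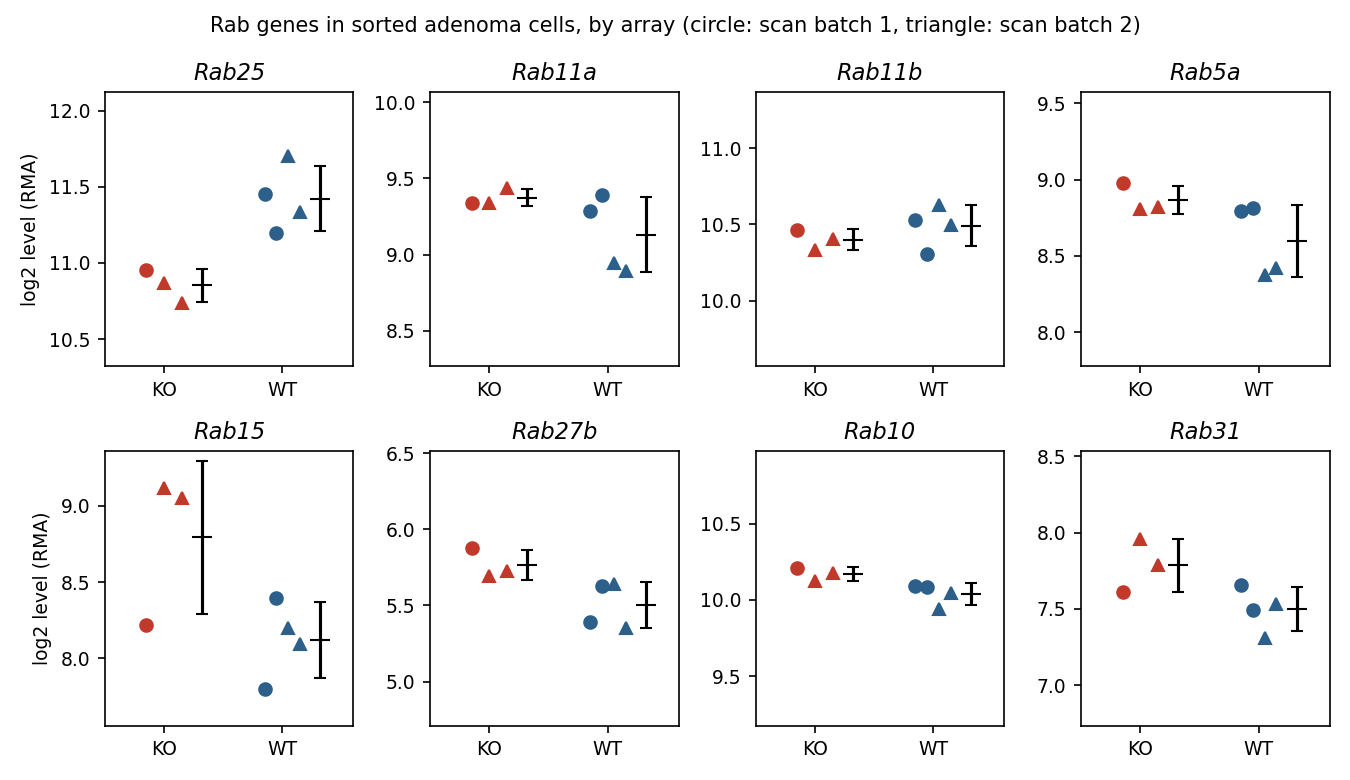
The log2 level of 8 Rab genes in each array is plotted, KO on the left and WT on the right, with circles for scan batch 1, triangles for scan batch 2 and the mean with its SD beside the points; every panel spans the same range of the log2 scale. The KO points of Rab25 lie between 10.74 and 10.95, below all WT points, and for Rab11a and Rab5a the 2 WT arrays of scan batch 2 are the lowest.

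Rab25 lies next to Mex3a. In the RefSeq annotation of GRCm38.p6 no protein-coding gene lies between them, and the 2 genes are annotated on opposite strands, Mex3a on the plus and Rab25 on the minus strand. The next gene on that side is Lamtor2, a subunit of the Ragulator complex that anchors mTORC1 to lysosomes. On its brighter probe set Lamtor2 read 9.33, 9.27 and 9.24 in KO, against 9.67, 9.33, 9.57 and 9.51 in WT, without overlap, and differed by -0.24 (SE 0.10; limma, unadjusted p = 0.0429, adjusted p = 0.434). Its other probe set went the opposite way, at 7.15, 7.06 and 7.32 in KO against 6.33, 6.84, 6.52 and 6.65 in WT, also without overlap, a difference of 0.59 (SE 0.14). The direction of Lamtor2 therefore depends on the probe set.

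The other 8 genes among the 5 on either side of Mex3a all had overlapping groups on their kept probe sets. On the side away from Rab25, Lmna, which encodes the nuclear lamins A and C, differed by -0.19 (SE 0.11) and the semaphorin gene Sema4a by -0.16 (SE 0.14). The dimmer Lmna probe sets gave 0.18 (SE 0.13), -0.02 and -0.01, so the sign of Lmna depends on the probe set. The mitochondrial carrier gene Slc25a44 differed by -0.03, the kinetochore gene Pmf1 by -0.01 and the osteocalcin gene Bglap by 0.00. Beyond Lamtor2, the ubiquilin gene Ubqln4 differed by 0.10, Ssr2, a subunit of the translocon-associated complex, by -0.09 and the exchange factor gene Arhgef2 by -0.02. Further probe sets of Slc25a44 (0.11, KO above WT) and Arhgef2 (-0.29, KO below WT) did not overlap between the groups. Of all 12822 genes 5.91% had groups that did not overlap on the kept probe set.

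**Figure D2:**
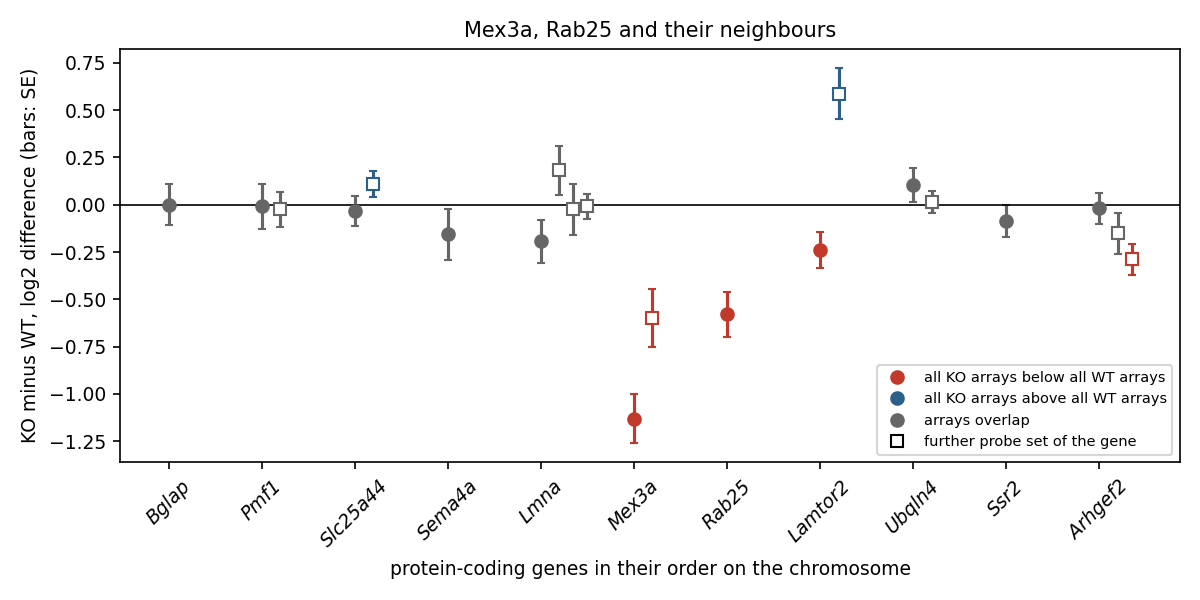
The log2 difference of KO minus WT is plotted for each probe set of Mex3a and the 5 protein-coding genes on either side, in their order on the chromosome, with bars of 1 SE, filled circles for the kept probe set and open squares for further ones. Mex3a (-1.13 and -0.60) and Rab25 (-0.58) lie below 0, and the 2 probe sets of Lamtor2 lie on opposite sides of 0 at -0.24 and 0.59.

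Over the family, differences were small and went both ways. Limma called 0 of the 47 tested Rab genes at adjusted p under 0.05, as it called 0 of 12822 genes (0.00%). At an unadjusted p under 0.05 there were 7 Rab genes (14.9%), against 11.4% of all genes. Higher in KO were 6 (12.8%, against 7.14% of all genes), namely Rab5a, Rab15, Rab27b, Rab11a, Rab33b and Rab31, and lower was Rab25 alone (2.13%, against 4.26%). For 3 Rab genes (6.38%) no KO array lay within the WT range or the reverse, close to the 5.91% of all genes. Rab27b and Rab10 were so placed above WT (4.26%, against 2.68% of all genes) and Rab25 below it (2.13%, against 3.23%). A difference of at least 0.5 in size was found for Rab25 and Rab15 (4.26%, against 1.27% of all genes). A positive difference was found for 22 Rab genes (46.8%), against 43.9% of all genes, and the median difference was -0.01 over the Rab genes and -0.02 over all genes. With array weights, an alternative that gives each array its own weight, limma called 7 Rab genes at adjusted p under 0.05 (14.9%, against 10.7% of all genes), 5 higher (10.6%, against 7.62%) and 2 lower (4.26%, against 3.07%). The median size of a difference was 0.10 over the Rab genes and 0.09 over all genes. The sign was the same in both scan batches for 26 of 47 Rab genes (55.3%), against 50.1% of all genes.

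**Figure D3:**
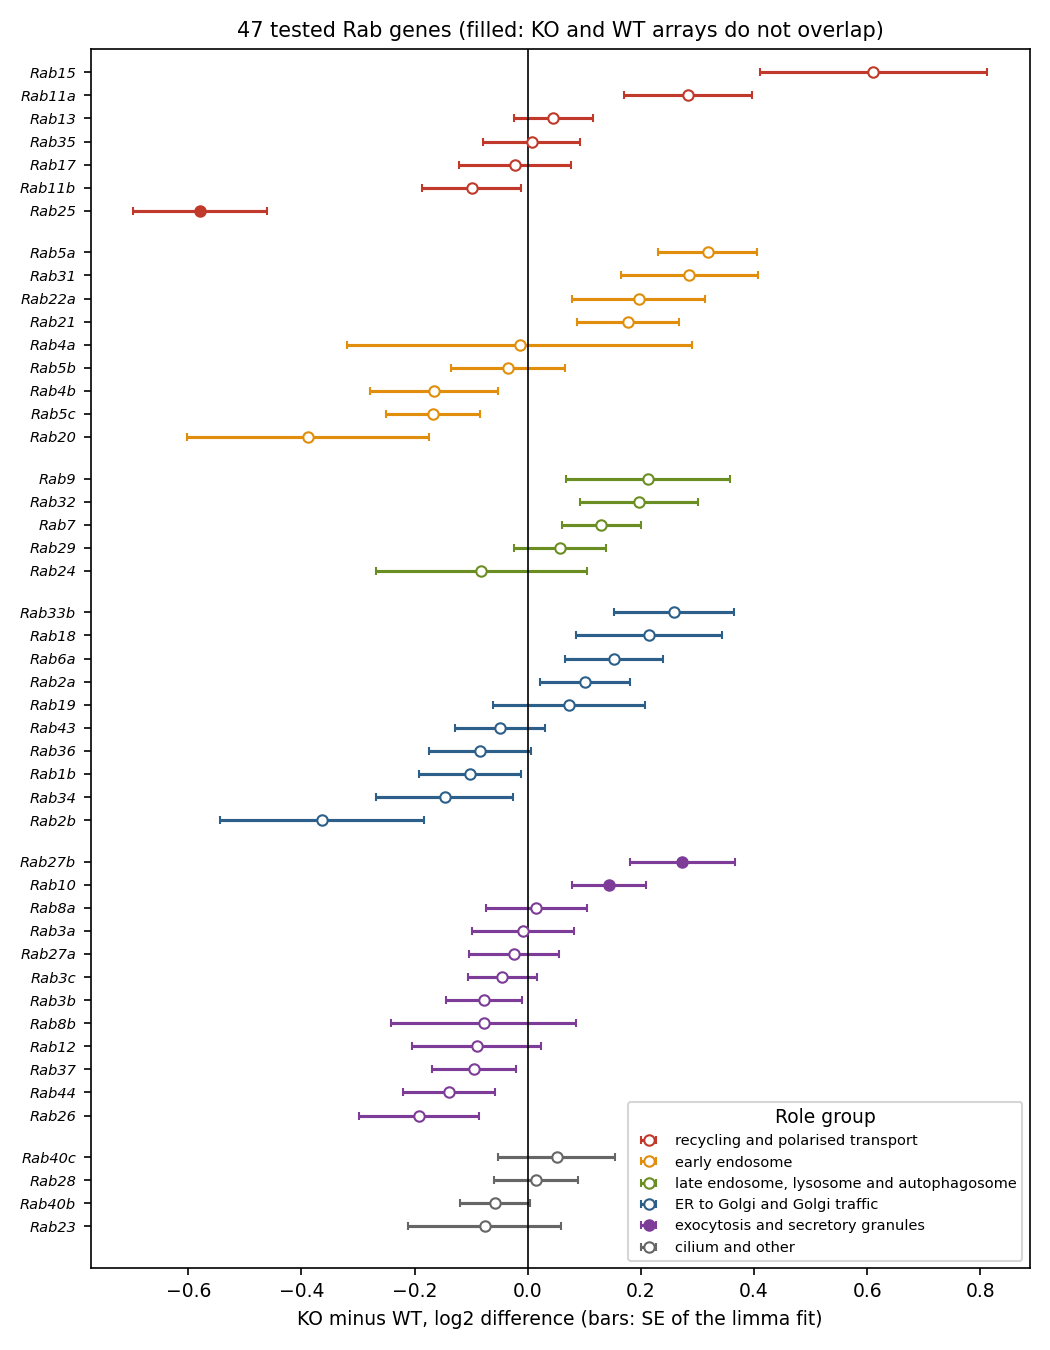
The log2 difference of KO minus WT of the 47 tested Rab genes is plotted by role group, with bars of 1 SE and filled points where the arrays of the groups do not overlap. Rab25 (-0.58) and Rab15 (0.61) are the extremes, and the filled points are Rab25, Rab27b and Rab10.

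Among the 7 tested members of recycling and polarised transport, 4 had positive and 3 negative differences. Rab15, which acts between early and recycling endosomes, showed the highest difference of any Rab gene. It read 8.22, 9.12 and 9.05 in KO, against 7.80, 8.40, 8.20 and 8.10 in WT. KO replicates 2 and 3 stood above every WT array, while KO replicate 1 lay inside the WT range. The difference was 0.61 (SE 0.20; limma, unadjusted p = 0.0162, adjusted p = 0.409), with 0.12 within scan batch 1, 0.94 within scan batch 2 and 0.23 with the Gapdh covariate. Rab13, a GTPase of tight junction traffic, Rab35, of fast recycling, and Rab17, an epithelial Rab of transcytosis, differed by 0.04, 0.01 and -0.02. The dimmer probe set of Rab17 gave 0.39.

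Of 9 early endosome members, 4 had positive and 5 negative differences, and the paralogs of Rab5 went different ways. Rab5a, which drives fusion of early endosomes, read 8.98, 8.81 and 8.82 in KO, against 8.80, 8.81, 8.37 and 8.42 in WT. The WT arrays of scan batch 2 were low, and KO replicate 2 lay just below WT replicate 2. The difference was 0.32 (SE 0.09; limma, unadjusted p = 0.00663, adjusted p = 0.388), with 0.17 within scan batch 1 and 0.42 within scan batch 2. Rab5c read 9.86, 9.73 and 9.74 in KO, against 10.01, 9.87, 10.05 and 9.86 in WT, and differed by -0.17 (SE 0.08), and Rab5b differed by -0.03. The difference between the paralogs was not tested.

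Rab31, which moves cargo between the Golgi and endosomes, read 7.61, 7.96 and 7.78 in KO, against 7.65, 7.49, 7.31 and 7.53 in WT. KO replicate 1 lay inside the WT range and the difference was 0.29 (SE 0.12; limma, unadjusted p = 0.0468, adjusted p = 0.437), with 0.04 within scan batch 1, 0.45 within scan batch 2 and without KO replicate 1, and 0.19 without WT replicate 3. Rab20, a Rab of endosomes and phagosomes, had the lowest difference of this group, -0.39 (SE 0.21). It read 6.98, 6.81 and 6.64 in KO, against 7.94, 6.95, 7.17 and 6.95 in WT, where replicate 1 was the highest. The difference was -0.21 without WT replicate 1 and -0.18 with the Gapdh covariate. Rab22a and Rab21, of early endosomal sorting, differed by 0.20 and 0.18, and Rab4b, of rapid recycling, by -0.16. Rab4a ranged from 6.62 to 7.94 within KO and from 6.83 to 7.99 within WT, the widest spread of the family, and differed by -0.01 (SE 0.31).

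Of the 5 tested late endosome, lysosome and autophagosome members 4 had positive differences, with a median of 0.13, and 0 had an unadjusted p under 0.05. Rab9, of transport from late endosomes to the Golgi, read 7.56, 7.68 and 7.76 in KO, against 7.80, 7.46, 7.48 and 7.15 in WT. The groups overlapped, and the difference of 0.21 (SE 0.15) was -0.07 within scan batch 1 and 0.08 without WT replicate 4. Rab7, which directs late endosomes to lysosomes, differed by 0.13 (SE 0.07), and Rab32, of lysosome-related organelles, by 0.20 (SE 0.10). Rab24, linked to autophagy, read 8.94, 9.42 and 9.51 in KO, against 9.48, 9.58, 9.42 and 8.99 in WT. Its difference of -0.08 (SE 0.19) turned to 0.26 without KO replicate 1, which leaves the scan batch 2 comparison.

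The 10 tested members of endoplasmic reticulum to Golgi and Golgi traffic divided into 5 positive and 5 negative differences. Rab33b, of the Golgi and of autophagosome formation, read 6.50, 6.43 and 6.68 in KO, against 6.39, 6.46, 6.29 and 6.05 in WT. KO replicate 2 lay just below WT replicate 2, and the difference was 0.26 (SE 0.11; limma, unadjusted p = 0.0404, adjusted p = 0.428), with 0.08 within scan batch 1 and 0.38 within scan batch 2. It was 0.13 with the Gapdh covariate and 0.17 without KO replicate 3 or without WT replicate 4. Rab2b, a Golgi paralog of Rab2a, had the lowest difference, -0.36 (SE 0.18). It read 5.16, 5.45 and 5.63 in KO, against 6.25, 5.72, 5.58 and 5.61 in WT, close to the level filter of 5.28. KO replicate 1 was the lowest and WT replicate 1 the highest, and the difference was -0.06 within scan batch 2 and without KO replicate 1, and -0.22 without WT replicate 1. Rab18, of lipid droplets and the endoplasmic reticulum, differed by 0.21 (SE 0.13), Rab6a, of Golgi retrograde transport, by 0.15 (SE 0.09), Rab2a by 0.10 (SE 0.08) and Rab1b, of transport to the Golgi, by -0.10 (SE 0.09). The single Rab1a probe set, below the filter, read 4.98 to 5.25 in KO and 4.91 to 5.06 in WT.

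Of the 12 exocytosis and secretory granule members, 9 had negative differences with a median of -0.06, while the 2 whose groups did not overlap were higher in KO. Rab27b, which docks secretory granules and exosome-forming endosomes, read 5.87, 5.69 and 5.73 in KO, against 5.39, 5.63, 5.64 and 5.35 in WT. All KO arrays lay above all WT arrays, KO replicate 2 by a narrow margin over WT replicate 3, at levels close to the filter of 5.28. The difference was 0.27 (SE 0.09; limma, unadjusted p = 0.019, adjusted p = 0.414), with 0.36 and 0.21 in the 2 scan batches. The other Rab27b probe sets gave 0.04 and 0.15, the latter from a probe set below the filter. Rab10, of basolateral and insulin-regulated exocytosis, read 10.21, 10.12 and 10.18 in KO, against 10.09, 10.09, 9.94 and 10.05 in WT. Its difference was 0.14 (SE 0.06; limma, unadjusted p = 0.0592, adjusted p = 0.445), and its 2 other probe sets gave 0.02 and 0.04 with overlapping groups. Rab26, of secretory granules, was the lowest of the group at -0.19 (SE 0.11), reading 5.71, 5.83 and 5.83 in KO, against 6.11, 5.65, 6.03 and 6.03 in WT, where replicate 2 stood below all KO arrays. It was -0.12 without WT replicate 1 and -0.07 with the Gapdh covariate. Rab8a, of apical exocytosis and the cilium, differed by 0.01 (SE 0.09) and Rab8b by -0.08 (SE 0.16). The neuroendocrine Rab3a, Rab3b and Rab3c differed by -0.01, -0.08 and -0.05, and the mean of 8 enteroendocrine markers ran from 6.25 to 6.58 in KO and from 6.15 to 6.37 in WT.

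The 4 remaining tested members had differences of -0.08 to 0.05. Rab40c, a substrate adaptor of a ubiquitin ligase, read 8.16, 8.24 and 8.37 in KO, against 8.22, 8.38, 8.18 and 8.09 in WT (difference 0.05, SE 0.10). Rab23, a brake on Hedgehog signalling at the cilium, read 8.19, 7.89 and 8.18 in KO, against 8.53, 8.05, 8.15 and 8.04 in WT (difference -0.08, SE 0.13). Both overlapped between the groups, and Rab28 and Rab40b differed by 0.01 and -0.06. The tested Rab genes not yet named also overlapped between the groups: Rab19, Rab34, Rab36 and Rab43 of the Golgi group (0.07, -0.15, -0.08 and -0.05), Rab29 of the lysosomal group (0.06), and Rab12, Rab27a, Rab37 and Rab44 of the exocytosis group (-0.09, -0.02, -0.10 and -0.14). On their kept probe sets the 8 genes below the level filter differed by -0.06 to 0.10 in the fit over all probe sets, with overlapping groups in each. The other probe set of Rab7b, also below the filter, had every KO array below every WT array, a difference of -0.14 (SE 0.05; limma, unadjusted p = 0.0296, adjusted p = 0.511).

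**Figure D4:**
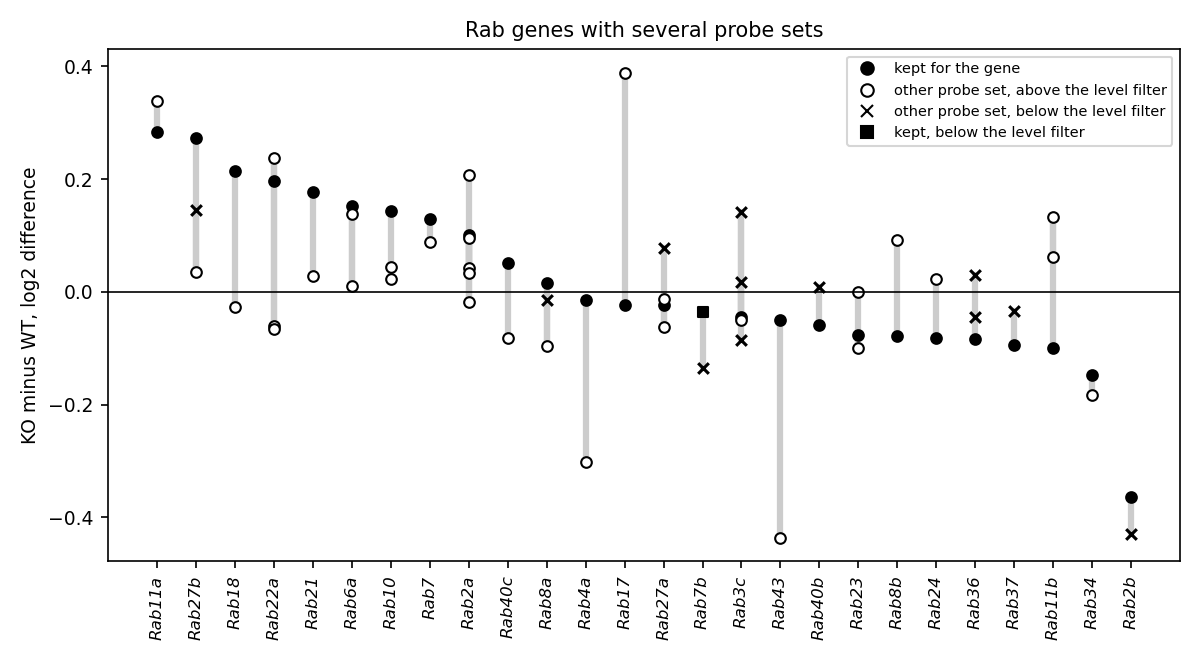
The log2 difference of KO minus WT of every probe set is plotted for the 26 Rab genes with several probe sets, ordered by the difference of the kept probe set (filled), with a grey line over the range. Rab11a keeps 1 sign (0.28 and 0.34), whereas Rab11b (-0.10, 0.06 and 0.13) has both.

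Probe sets of a gene often disagreed at the size of difference seen here. Of 26 Rab genes with several probe sets, 13 had differences of 1 sign and 13 of both, and the span within a gene had a median of 0.14 and reached 0.41 in Rab17. Of the 21 genes with several probe sets above the level filter, 12 had 1 sign. Rab2a, with 6 probe sets, ran from -0.02 to 0.21, and the dimmer probe set of Rab43 gave -0.44 against -0.05 on the kept one. Rab25, Rab5a, Rab15, Rab31 and Rab33b rest on a single probe set each, so this comparison cannot be made for them.

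The machinery that acts on Rabs was counted over lists that hold each class as a whole, and 0 members passed over all genes in any of them. Their counts at an unadjusted p under 0.05 are to be read against 7.14% of all genes higher, 4.26% lower and 11.4% in either direction. Proteins that prenylate or recycle Rabs had 14 tested members with a median difference of 0.05, 1 higher and 1 lower at an unadjusted p under 0.05 (14.3%, near the share of all genes). Gdi2, which extracts Rabs from membranes, differed by 0.27 (SE 0.09) and Yipf2, a Golgi membrane protein, by -0.24 (SE 0.10), while the prenylated Rab acceptor family gene Praf2 differed by -0.27 (SE 0.13). Within scan batch 1 these differences were 0.03, -0.05 and -0.03, and without KO replicate 1, as within scan batch 2, they were 0.43, -0.37 and -0.43. With the Gapdh covariate they were 0.12, -0.09 and -0.10. Of 30 exchange factors, 4 were higher and 0 lower at that level (13.3%, against 11.4% of all genes), with a median of -0.02. Dennd1b, an exchange factor for Rab35, differed by 0.45 (SE 0.13), Dennd2d by 0.44 (SE 0.13) and Ccz1, part of the exchange factor for Rab7, by 0.39 (SE 0.13), each with all KO arrays above all WT arrays. For all 3 the difference within scan batch 1 was small, at 0.11, 0.09 and 0.10, against 0.68, 0.68 and 0.58 within scan batch 2. With the Gapdh covariate Dennd1b, Dennd2d and Ccz1 differed by 0.335, 0.27 and 0.26. Under the processing alternatives run, the lowest Dennd1b difference was 0.087.

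Of 31 GTPase-activating proteins, 0 were higher and 2 lower (6.45%, below the 11.4% of all genes), with a median of -0.06. Tbc1d2b differed by -0.33 (SE 0.13) without overlap and Tbc1d7, a partner of the tuberous sclerosis complex, by -0.24 (SE 0.10), and Tbc1d14, of autophagy and recycling endosomes, by 0.21 (SE 0.10). Tbc1d7 differed by -0.09 without KO replicate 1, and Tbc1d2b by -0.19 with the Gapdh covariate. Of 13 Rab11 and Rab25 effectors, 1 was higher and 0 lower (7.69%, below the 11.4% of all genes), with a median of 0.03. Ehd1, which tubulates recycling endosomes, differed by 0.23 (SE 0.09) and by 0.14 with the Gapdh covariate, and Wdr44, a Rab11 binder, by 0.15 (SE 0.06) without overlap. Rab11fip1, an effector of both Rab11a and Rab25, differed by -0.14 (SE 0.11), and Myo5b, the motor of the apical recycling endosome, by 0.08 (SE 0.08).

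Of 33 other effectors, 6 were higher and 2 lower (24.2%, against the 11.4% of all genes). Gcc2, a Golgi coiled-coil protein, read 8.44, 8.43 and 8.30 in KO, against 8.11, 8.09, 7.83 and 7.56 in WT, a difference of 0.54 (SE 0.11; limma, unadjusted p = 0.00133, adjusted p = 0.329). Fyco1, which links Rab7 to kinesin, read 8.78, 8.54 and 8.61 in KO, against 8.51, 8.45, 8.11 and 8.09 in WT, a difference of 0.40 (SE 0.08; limma, unadjusted p = 0.00139, adjusted p = 0.329). Both kept their sign in the 2 scan batches, at 0.34 and 0.67 for Gcc2 and at 0.30 and 0.47 for Fyco1. Under the processing alternatives run, the lowest Gcc2 difference was 0.27. Rims2, an effector of Rab3 counted among the 2 lower, differed by -0.29 (SE 0.08) and by -0.19 with the Gapdh covariate. Its KO mean of 5.16 lay below the level filter of 5.28. It passed that filter only through the WT arrays, with a mean of 5.53, so its difference lies at the floor.

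Of 9 subunits of the exocyst, a tether, 3 were higher at an unadjusted p under 0.05 (33.3%, against 7.14% of all genes). They were Exoc2, Exoc4 and Exoc5 (0.30, 0.24 and 0.33). With the Gapdh covariate they differed by 0.16, 0.19 and 0.18, and the lowest Exoc4 difference under any alternative was 0.10. Of 18 members of HOPS, CORVET and retromer 3 were higher (16.7%, against 7.14%), namely Vps33a, Vps35 and Tgfbrap1 (0.42, 0.35 and 0.21). Within scan batch 1 they differed by -0.03, 0.14 and 0.12, against 0.72, 0.49 and 0.27 within scan batch 2, and with the Gapdh covariate by 0.14, 0.20 and 0.14. The lowest Tgfbrap1 difference under any alternative was 0.05. Without KO replicate 1, which leaves the scan batch 2 comparison, Vps33a again differed by 0.72. No member of either class was lower at that level, against 4.26% of all genes. Of 21 SNAREs and their partners 1 was higher (4.76%, against 7.14%), the syntaxin-binding Stxbp3 (0.42, SE 0.11), which differed by 0.18 within scan batch 1. Vamp3 and Stx7, of recycling and late endosomes, differed by 0.31 (SE 0.14) and 0.24 (SE 0.11). Within scan batch 1 these were 0.03 and 0.08, and with the Gapdh covariate both were 0.09. Without KO replicate 1 Vamp3 differed by 0.49 and without KO replicate 2 by 0.20, and Stx7 differed by 0.15 without WT replicate 3. The mean level of the exocyst list was 8.20, 8.15 and 8.14 in KO, against 8.15, 8.23, 7.98 and 8.01 in WT, again with the WT arrays of scan batch 2 lowest.

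**Figure D5:**
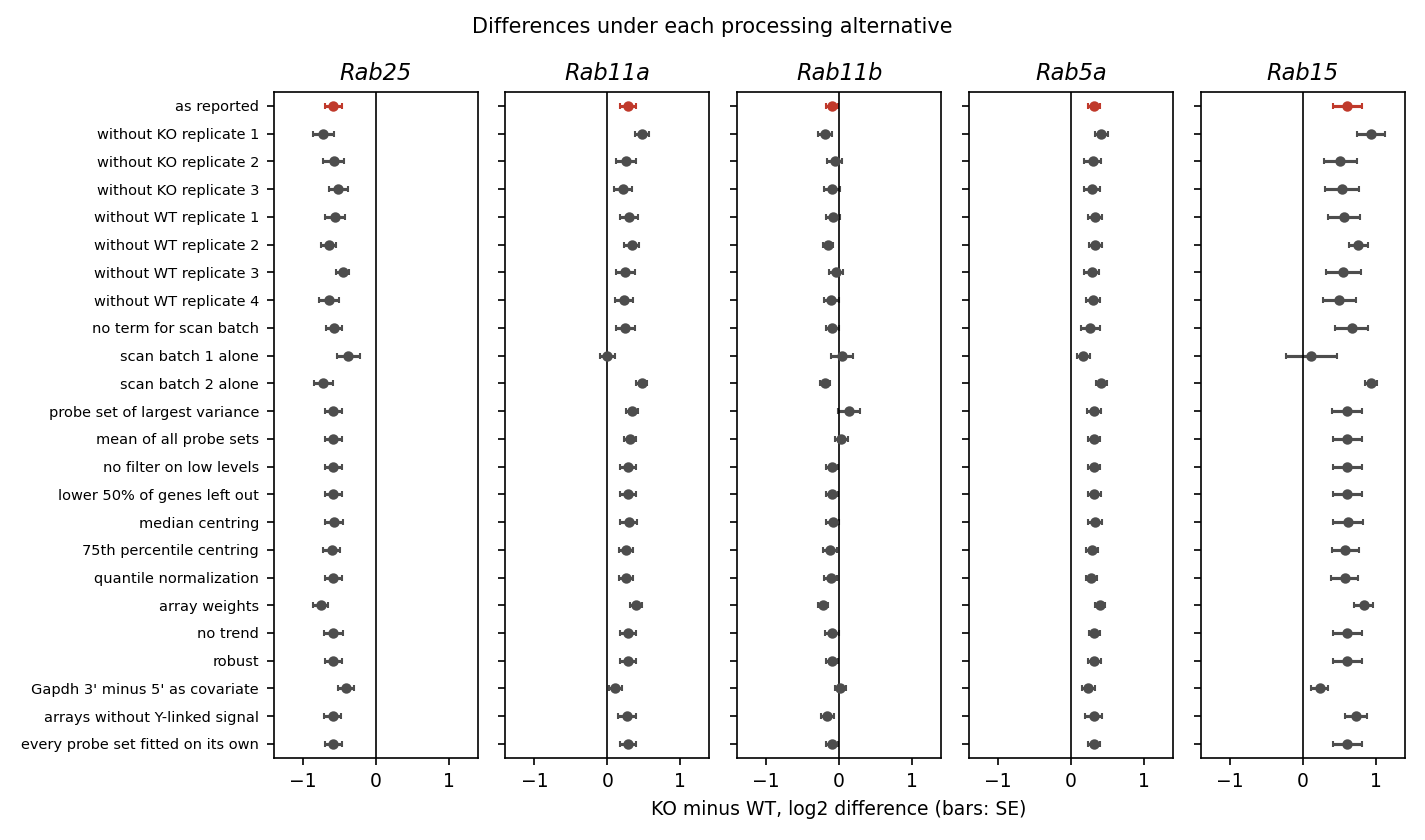
The log2 difference of KO minus WT of 5 Rab genes is plotted under each processing alternative, with bars of 1 SE and the reported value in red at the top. Rab25 stays between -0.76 and -0.37, Rab5a between 0.17 and 0.42, and Rab11b lies on both sides of 0.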

How the data were processed

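Expression was measured in 3 KO and 4 WT samples. The deposited values are log2 levels of 45141 probe sets, made by the authors with RMA, per the submitters' processing notes; whether batches were corrected is not given in the sources. Symbols came from the platform annotation and were matched to RefSeq (GRCm38.p6) through gene numbers for 28689 probe sets, with 0 updates. For each gene the probe set with the highest mean was kept, and the lowest 25% of genes were left out.

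KO was compared with WT in limma 3.58.1 (R 4.3.3; lmFit, eBayes with a trend, scan batch as covariate, Benjamini-Hochberg over 12822 genes, threshold 0.05), leaving 4 residual degrees of freedom and a median SE of 0.09. Genes below the filter, and all further probe sets, were fitted over all probe sets. The number of arrays limits the precision. Ratios were tested by exact two-sided permutation of the plain difference of group means. Their stated differences and SEs came from an ordinary linear model with scan batch, which was also used for exchange within scan batch. The fit was also run on simulated data with known changes and independent noise of the same spread in every array. Such data lack the unequal array weights of the real arrays, so they cannot speak to the fit under those. Fold changes are 2 raised to the size of the log2 difference. Values are given for each array for Rab25, Rab11a and Rab11b, for Rab genes without overlap or with an unadjusted p under 0.05, and for the highest and lowest of each role group; of each list the 3 genes of smallest p are named, and all 5 genes on either side of Mex3a. Other values given for Rab genes, Myo5b, marker genes and further probe sets were chosen after they were seen. The members and lists were chosen with earlier results of these data known.

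The alternatives left out each array, the scan batch term, 1 scan batch or the arrays with Y-linked signal, or changed the probe set kept, the level filter, the scaling, array weights, the eBayes options or the covariates. KO replicate 1 was the only KO array of scan batch 1. Leaving it out therefore gave the same differences as scan batch 2 alone and was not a separate check.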

Additional observations from a re-analysis of the deposited data

Results flagged for a closer look

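In 3 of the 55 Rab genes 1 of the 4 WT arrays stood apart from the other 3 by more than Dixon's 95% critical value for the gap over the range; chance alone flags about 1 group in 20. Rab26 read 5.65 in WT replicate 2, against 6.03 to 6.11 in the other WT arrays. Rab39, below the level filter, read 4.03 in WT replicate 1, against 4.13 to 4.15 in the others. Rab3c read 6.11 in WT replicate 1, against 6.05 to 6.06 in the others, a gap of little size. WT replicates 2 and 3 had the same Rab3c value, and WT replicates 3 and 4 the same Rab39 value. Tied values occurred in 40 of the 99 Rab probe sets.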

How the results depend on the processing

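The decrease of Rab25 kept its sign under every alternative run, between -0.76 and -0.37. It was called with array weights only (-0.76, adjusted p = 0.0269), where limma called 1370 of 12822 genes and 7 Rab genes (14.9%, against 10.7% of all): Rab25 and Rab5c lower, and Rab5a, Rab11a, Rab15, Rab22a and Rab31 higher. Those weights ran from 0.297 for KO replicate 1 to 3.04 for KO replicate 2. Leaving out 1 array at a time gave 0 to 2 called genes (2 without WT replicate 2 and 2 without WT replicate 4). The ratio of Rab25 to Rab11b did not pass once adjusted over the 2 pairs. Its unadjusted exact permutation p was 0.0286 with all 7 arrays. With 1 array left out, too few splits remain for any p under 0.05, so that p cannot speak to stability. The difference then ran from -0.53 to -0.41. The ratio differed by -0.42 and -0.52 in scan batches 1 and 2, -0.43 without the arrays with Y-linked signal, -0.71 with the probe set of largest variance, and -0.48 (exact permutation p = 0.0556) with exchange within scan batch. Signs turned as follows, and the cause was not tested. With scan batch 1 alone Rab11b was 0.044, Rab40c -0.133, Rab9 -0.069, Rab11fip1 0.024, Vps33a -0.030, Ubqln4 -0.041 and Arhgef2 0.16. Scan batch 2 alone gives the same differences as leaving out KO replicate 1. With scan batch 2 alone Rab24 was 0.26, Bglap -0.019, Pmf1 0.002, Slc25a44 0.011 and Sema4a 0.018. With the probe set of largest variance Rab11b was 0.13, Rab40c -0.082, Tbc1d14 -0.17 and Lamtor2 0.59, and with the mean of all probe sets Rab11b was 0.032, Rab40c -0.015, Slc25a44 0.038 and Lamtor2 0.17. With the Gapdh covariate Rab11b was 0.018, Rab23 0.006, Rab40c -0.086, Rab11fip1 0.028, Bglap -0.064 and Arhgef2 0.094. With array weights Rab24 was 0.033 and Bglap -0.022. Bglap was -0.024 with 75th percentile centring and -0.022 with quantile normalization. Pmf1 was 0.045 without the scan batch term, 0.003 with median centring and 0.077 without the arrays with Y-linked signal. With 1 array left out Rab23 ran from -0.154 to 0.005, Rab24 from -0.27 to 0.26, Rab40c from -0.012 to 0.17, Bglap from -0.062 to 0.057, Pmf1 from -0.083 to 0.070, Slc25a44 from -0.057 to 0.011, Sema4a from -0.255 to 0.018 and Arhgef2 from -0.140 to 0.031. No paired analysis was possible because the labels give no replicate numbers shared by KO and WT samples. With 7 arrays and a median SE of 0.09, differences of the size most Rab genes showed cannot be told from 0.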
